A study of Mus musculus and Rattus norvegicus with 37 samples.

Results

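The genes described here are 10 members of the integrated stress response and the unfolded protein response of the endoplasmic reticulum (ER). They were taken by their names, which are Atf4, Ddit3, Atf3, Trib3, Asns, Chac1, Ern1, Xbp1, Hspa5 and Herpud1. All 10 were found once in each of the 4 tables of liver RNA-seq values, among 47929 gene names with a single entry in the mouse tables and 28026 in the rat tables. The study asked how inhibition of the microRNA miR-29 changes gene expression in the liver of mice with and without hepatic Sirt1, and what of this is seen in obese rats.

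The tables hold 37 livers, 21 from mice and 16 from rats, with 1 library per animal. All mice were chow-fed females on a C57BL/6J background whose livers were collected in the fed state, 7 days after 1 subcutaneous injection of saline or of LNA29. LNA29 combines locked nucleic acid inhibitors against miR-29a and against miR-29b/c, each dosed at 20 mg/kg. The control was saline and not a scrambled inhibitor. The WT/Floxed group pools wild type (WT) mice aged 9 to 11 weeks with floxed mice aged 15 to 20 weeks, which carry the floxed Sirt1 allele and are littermates of the knockout mice. It holds 8 LNA29-treated mice (4 WT and 4 floxed) and 5 saline-treated mice (3 WT and 2 floxed). The authors had left 1 floxed saline-treated mouse out. The mice labelled L-Sirt1 KO, with a knockout of Sirt1 directed to the liver and aged 15 to 20 weeks, are 4 treated with LNA29 and 4 with saline. Their Sirt1 count ran from 535 to 617 and that of the WT/Floxed mice from 493 to 699, in tables that were normalized apart. A gene total does not tell whether the deletion is there, so they are called by their label. The study measured hepatic Sirt1 by another method as well, which is not reported here. The rats are 4 Zucker fatty rats (ZFR, obese through a leptin receptor mutation) and 4 Zucker lean rats (ZLR), males of 5.5 months on chow, and 4 ZFR of 3 months given BT2 with 4 given vehicle. BT2 inhibits the kinase that holds branched-chain keto acid dehydrogenase inactive, and it was injected daily at 20 mg/kg for 1 week with dimethylsulfoxide as the vehicle.

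The integrated stress response begins when kinases that sense ER stress, amino acid shortage, heme shortage or viral RNA phosphorylate the translation factor eIF2. General translation then slows while the mRNA of the transcription factor ATF4 is translated better, and ATF4 with its partners switches on genes of amino acid supply, redox balance and, when the stress lasts, cell death. The unfolded protein response covers this branch, started by the ER kinase PERK, together with the branches of the ER sensors IRE1 and ATF6. IRE1, the product of Ern1, cuts the Xbp1 mRNA so that it is spliced to code for an active transcription factor, and ATF6 is freed by proteolysis. Hepatocytes secrete most plasma proteins and carry a large ER, and both responses are known to follow feeding, lipid load and time of day in liver. Counts per gene see the transcript level and neither the translation of ATF4 nor the splicing of Xbp1.

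The microRNAs that LNA29 inhibits are shown first, because a member with a site for them could be a direct target. Their mature sequences were taken from RefSeq (GRCm38.p6) and are written 5′ to 3′, with the seed (bases 2 to 8) in capitals. miR-29a-3p lies at chr6:31062673-31062694 (minus strand), miR-29b-3p at chr1:195037091-195037113 (plus strand) and chr6:31063025-31063047 (minus strand), and miR-29c-3p at chr1:195037600-195037621 (plus strand).
miR-29a-3p: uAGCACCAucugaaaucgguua
miR-29b-3p: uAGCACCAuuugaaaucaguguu
miR-29c-3p: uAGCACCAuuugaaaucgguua
All 3 share the seed AGCACCA, so a site that pairs with the whole seed reads TGGTGCT in the mRNA strand. This site was found in the annotated 3′ UTR of 2 of the 10 genes, against 3315 of 21173 genes with a 3′ UTR (15.7%). It is shown in capitals with 10 bases on each side for Trib3, which codes for a pseudokinase that restrains ATF4 and AKT, and for Ern1.
Trib3: ctgtcttctcTGGTGCTggttcatggg
Ern1: gttctggatgTGGTGCTggcccagcac
The site of Trib3 starts at base 305 of a 3′ UTR of 785 bases, and that of Ern1 at base 646 of 3892. In neither gene is it followed by the A that the longest form of a miR-29 site has.

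The members also differ in the motifs of their promoters, which are shown because Atf4, Atf3, Ddit3 and Xbp1 code for factors that bind such motifs. The window ran from 250 bases before to 50 bases after the RefSeq start of each gene (GRCm38.p6), and both strands were searched in all 32851 promoters. The composite C/EBP-ATF site TGATGNAA, bound by ATF4 with a C/EBP partner, was in 1304 promoters (3.97%) and in those of 5 members. It is in capitals below, on the strand of the gene, with 20 bases on each side. It lies on the opposite strand in all but Asns, where the motif reads on the strand of the gene.
Atf3, chr1:191183416-191183463 (minus strand): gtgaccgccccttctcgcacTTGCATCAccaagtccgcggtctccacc
Trib3, chr2:152344019-152344066 (minus strand): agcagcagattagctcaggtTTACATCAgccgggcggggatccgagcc
Asns, chr6:7693205-7693252 (minus strand): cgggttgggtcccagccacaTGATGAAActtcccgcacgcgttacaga
Herpud1, chr8:94386297-94386344 (plus strand): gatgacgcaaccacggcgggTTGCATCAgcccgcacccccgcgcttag
Chac1, chr2:119351029-119351076 (plus strand): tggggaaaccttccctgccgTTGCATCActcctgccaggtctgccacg
The first base of the match was 193 bases before the start in Chac1, 112 in Herpud1, 110 in Atf3 and 23 in Asns, and 15 bases after the start in Trib3. Asns codes for asparagine synthetase and Chac1 for an enzyme that breaks down glutathione.

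The ER stress response element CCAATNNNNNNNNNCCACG, a site of ATF6 with NF-Y, was in 39 promoters (0.119%), among them that of Hspa5, 65 bases before the start. Its shorter form ATTGGNCCACG was in 12 promoters (0.0365%), among them that of Herpud1, 52 bases before the start. Both matches are on the strand of the gene and are shown in capitals. Hspa5 codes for BiP, the main chaperone of the ER lumen, and Herpud1 for an ER membrane protein of the machinery that degrades misfolded proteins.
Hspa5, chr2:34772005-34772063 (plus strand): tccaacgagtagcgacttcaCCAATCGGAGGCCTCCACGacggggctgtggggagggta
Herpud1, chr8:94386357-94386407 (plus strand): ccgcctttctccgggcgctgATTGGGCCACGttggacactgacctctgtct
The unfolded protein response element TGACGTGG was in 222 promoters (0.676%) and the cyclic AMP response element TGACGTCA in 588 (1.79%), and neither was in the window of a member. Herpud1 was the member that held motifs of both kinds, and Atf4, Ddit3, Ern1 and Xbp1 held none of the 5 searched.

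**Figure D1:**
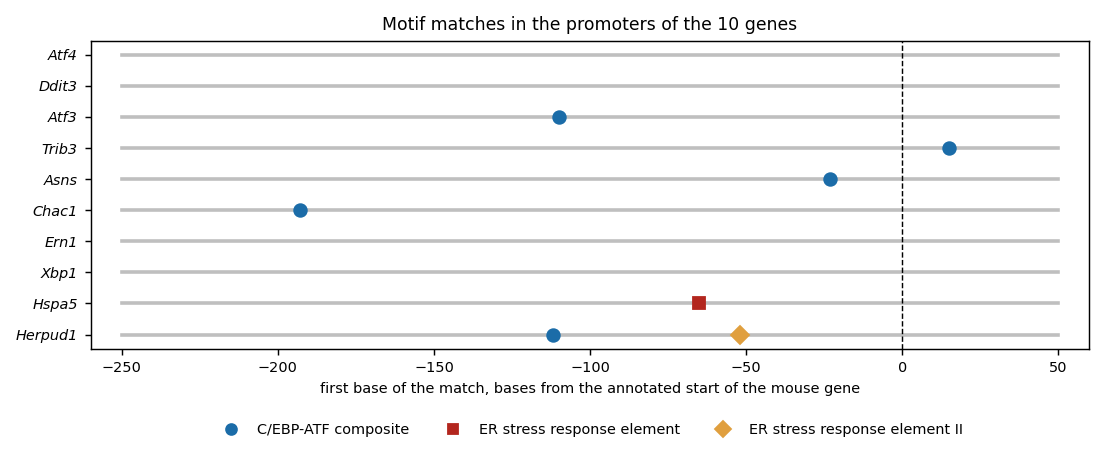
Motif matches in the promoters of the 10 mouse genes. The horizontal axis gives the first base of a match in bases from the annotated start of the gene (dashed line), each grey line is a searched window, and symbols mark the motif. The C/EBP-ATF composite lies in 5 promoters between 193 bases before and 15 bases after the start, and the ER stress response elements lie 65 bases (Hspa5) and 52 bases (Herpud1) before it.

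The values are normalized counts, that is, estimated read counts scaled between the libraries of a table, and they are compared between animals and not between genes. Mouse libraries held 42.6 to 78.0 M reads and rat libraries 0.188 to 58.5 M, with 6 rat libraries under 1 M (ZLR replicates 3 and 4, ZFR replicate 3, vehicle replicate 4 and BT2 replicates 1 and 4), in which 1 read was worth up to 10.5 normalized counts. Every difference below is a log2 difference of normalized count + 1 from limma, with its 95% interval where it is given, and adjusted p-values are limma's after Benjamini-Hochberg adjustment over all genes tested. A mouse gene is called where it passes the 4 criteria of the study, which are a fold above 1.2, a mean count above 50, an unadjusted p under 0.05 and an adjusted p under 0.2. A rat gene is called at an adjusted p under 0.05. In bulk liver, fewer cells of a type and less RNA per cell cannot be told apart.

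In WT/Floxed mice, LNA29 was accompanied by a higher Chac1 count, and the other 9 genes were not called. Chac1 (chr2:119351229-119354381, plus strand, GRCm38) ran from 97.7 over a median of 214 to 327 in the 8 LNA29-treated mice, and the 5 saline-treated mice had 84.6, 47.9, 97.7, 144 and 177. The groups overlap, since 2 LNA29-treated mice lie below the highest saline-treated mouse's 177, and the lowest LNA29-treated mouse lies beside the median saline-treated one. The LNA29-treated mean was 211 ± 71.2 (SD, n = 8), and the saline-treated mean was 110 ± 50.9 (SD, n = 5). The difference was 0.98 (SE 0.31, 0.32 to 1.65), a fold of 1.98, with an adjusted p of 0.161 by limma. The two-sided exact permutation test over the mice gave p = 0.0163, which is not adjusted for the 10 members. The difference was 0.85 within WT mice and 1.16 within floxed mice, and 1.10, 1.32 and 0.66 within the 3 flow cells. The 1.32 rests on 1 saline-treated mouse. The call was lost without any 1 of 7 of the 13 mice (LNA29 replicates 5, 6, 7 and 8 and saline replicates 1, 2 and 3), where the difference went down to 0.72 and the adjusted p up to 0.315. 1 of 10 members was therefore called higher and 0 lower, where 2.42% of the 15811 genes tested were called higher and 1.93% lower. The median difference was 0.0092 over the members and 0.0017 over all genes.

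The transcription factors of the response had much the same counts in both groups. Atf4 ran from 3898 over a median of 5243 to 7078 with LNA29, and the saline-treated mice had 4026, 6077, 4637, 4179 and 7069.6. The difference of 0.05 had an interval from −0.28 to 0.38. Ddit3, which codes for the death-associated factor CHOP, differed by −0.01 (−0.36 to 0.34), with means of 366 and 365. Atf3, a stress-induced factor of the ATF/CREB family, differed by 0.01 (−0.57 to 0.60), with means of 84.8 and 85.6. Ddit3 overlaps Mars and Gm4189 on the opposite strand, and whether the counting used strand is not given in the sources used here, so its reads and theirs may not be separate.

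Of the targets of ATF4, Trib3 ran from 164 to 566 with LNA29 and from 188 to 527 with saline, and Asns from 7.31 to 49.5 and from 8.42 to 35.0. Both pairs of ranges nearly coincide. The difference was −0.14 (−0.82 to 0.53) for Trib3 and 0.09 (−0.88 to 1.05) for Asns, whose few counts leave a wide interval and whose mean of 19.1 is under the 50 that a call needs. Trib3 and Ern1, the members with a miR-29 site, thus had no called difference, and that of Ern1 was 0.0066 (−0.29 to 0.30), with means of 3284 and 3322.

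In the ER arm, Hspa5 ran from 29534 over a median of 47712 to 96207 with LNA29, and the saline-treated mice had 52162, 52836, 54018, 48184 and 105042. All but 1 of the saline-treated mice thus lay within a narrow band, and the LNA29-treated ones spread to both sides of it. The difference was −0.16 (−0.71 to 0.39). Xbp1 differed by −0.06 (−0.39 to 0.26), with means of 10832 and 11436.

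Herpud1 differed by 0.28 (−0.29 to 0.85) over all mice, and its values went in different directions in WT and floxed mice. In WT mice it ran from 13487 to 16748 with LNA29, and the saline-treated mice had 23064, 15800.3 and 19618. In floxed mice it ran from 11300 to 25545 with LNA29, and the saline-treated mice had 6622 and 9570.0. LNA29-treated WT mice were thus mostly below the saline-treated ones, with a difference of −0.36, and LNA29-treated floxed mice were all above theirs, with a difference of 1.17 and an adjusted p of 0.147 in a limma fit of the floxed mice alone. The response of floxed mice minus that of WT mice was 1.53 (SE 0.35, 0.78 to 2.28) with an unadjusted limma p of 0.00072 and an adjusted p of 0.525, so it did not pass, and the floxed side rests on 2 saline-treated mice. Ern1 had the next smallest p among the members, with a difference in response of 0.47 (adjusted p = 0.53, limma). Over all genes 0.00632% had a difference in response at an adjusted p under 0.2, and 0 of 10 members did, with 2 members and 8.85% of all genes at an unadjusted p under 0.05.

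**Figure D2:**
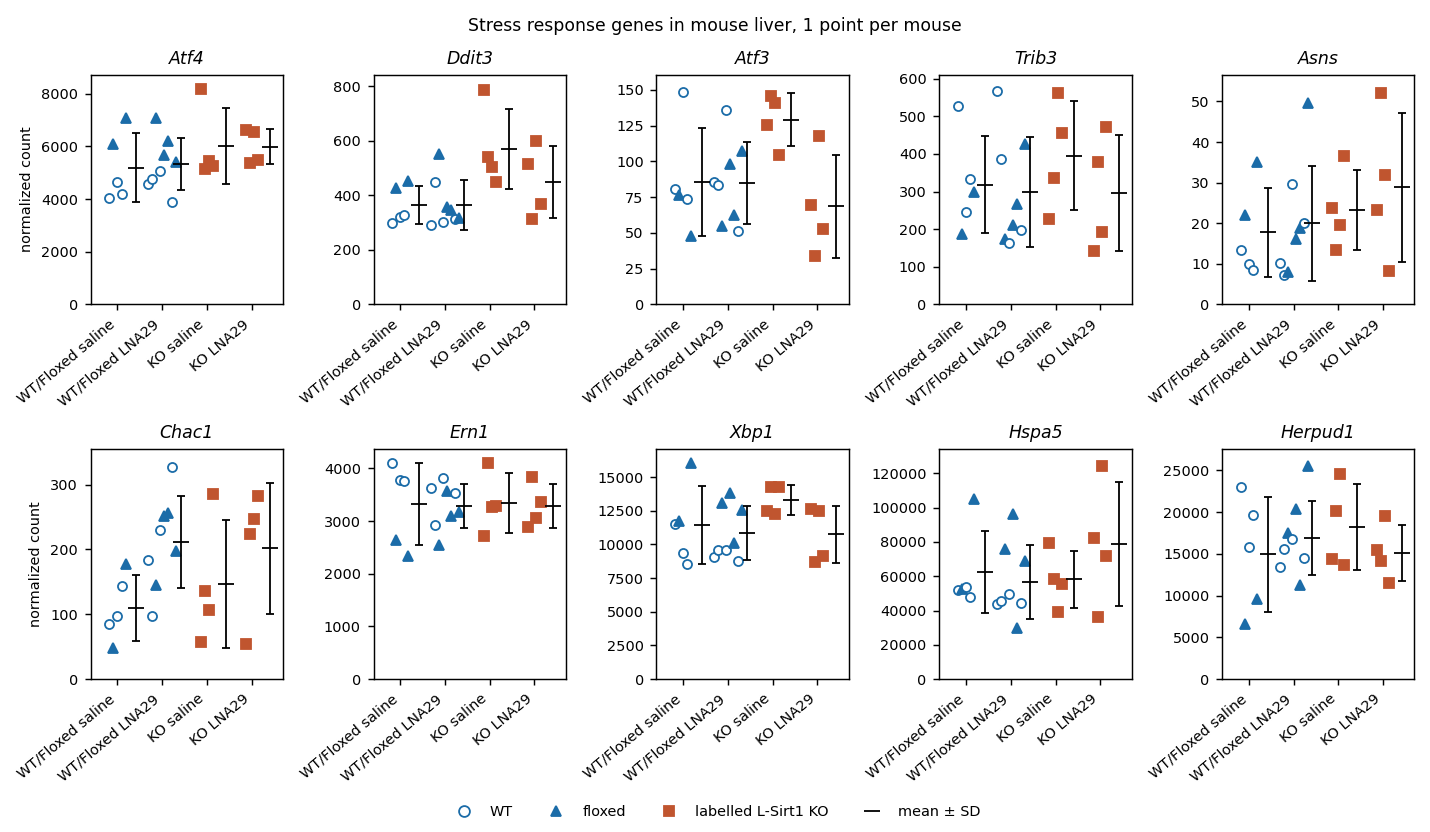
Normalized counts of the 10 genes in mouse liver by group, 1 point per mouse, with circles for WT, triangles for floxed and squares for mice labelled L-Sirt1 KO, and bars for the mean ± SD. The LNA29-treated WT/Floxed mice lie higher for Chac1 (mean 211 against 110), the floxed mice lie above the WT mice for Atf4, and KO values were normalized apart from the others.

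Around the members, 8 lists with 110 pathway genes were read in the same fit, of which 109 were tested in WT/Floxed mice and 6 were called, with 14 at an unadjusted p under 0.05, as were 13.3% of all genes. Of 11 other ATF4 partners and stress readouts, Fgf21 was called higher and Ddit4 lower. Fgf21, a hormone that the liver releases in fasting and under amino acid or ER stress, ran from 72.8 to 761 with LNA29 and from 16.6 to 201 with saline, a difference of 1.90 (adjusted p = 0.171, limma). Ddit4, an inhibitor of mTORC1, ran from 241 to 432 against 416 to 623, a difference of −0.56 (adjusted p = 0.0569, limma). They moved in opposite directions, and the median over the list was 0.15. Of 15 tested genes of ATF4-driven amino acid synthesis and transport, 0 were called higher, and Gpt2 (−0.55), an alanine aminotransferase of mitochondria, and Shmt2 (−0.28), which takes carbon units from serine there, were called lower (adjusted p = 0.185 each, limma). The call of Fgf21 was lost without any 1 of 9 mice (LNA29 replicates 2, 5, 6, 7 and 8 and saline replicates 2, 3, 4 and 5, adjusted p up to 0.338). That of Gpt2 was lost without any 1 of 9 (LNA29 replicates 2, 3, 5, 6, 7 and 8 and saline replicates 1, 3 and 4, up to 0.363), and that of Shmt2 without any 1 of 10 (LNA29 replicates 3, 5, 6, 7 and 8 and each saline replicate, up to 0.369). Ddit4 was called without each mouse in turn. Of 16 genes of ER-associated degradation and translocation, Derl3, a subunit of the channel that takes proteins out of the ER, was called higher, at 135 to 707 against 34.0 to 274, a difference of 2.16 (adjusted p = 0.0486, limma) that was called without each mouse in turn.

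The lists nearest to the kinases and the chaperones held no called gene. They were 12 genes of eIF2 control, 12 aminoacyl-tRNA synthetases, 8 ER sensors and their proteases and 21 ER chaperones and folding enzymes, with 2, 1, 1 and 1 genes at an unadjusted limma p under 0.05. The largest differences were 0.47 for Ppp1r15a, which codes for the phosphatase subunit GADD34, and 0.60 for Cars, and 0.25 (−0.03 to 0.53) for Creb3l3 and −0.27 (−0.67 to 0.14) for Dnajb9, whose intervals hold 0. Of the chaperones 11 had a higher and 10 a lower value. With WT or floxed background as a covariate Cars (0.54, adjusted p = 0.0784, limma) and Ppp1r15a (0.43, adjusted p = 0.15, limma) were called, and both were also called with sample quality weights. Of 14 immediate early genes, which rise with handling and growth signals as well as with stress, Egr1 was called higher at 891 to 4537 against 194 to 1428, a difference of 1.71 (adjusted p = 0.108, limma), and the list's median was 0.27. The call of Egr1 was lost without LNA29 replicate 8 or saline replicate 2, where the adjusted p went up to 0.217.

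Markers of other cell types were read in the same libraries. Pancreatic acinar markers summed to 44.7 to 314 with LNA29 and 23.6 to 1231 with saline, with 0 of 5 tested called, and macrophage markers to 7256 to 38185 and 13007 to 22640, with 0 of 8. Of the others tested 0 of 8 stellate, 0 of 5 cholangiocyte, 0 of 6 plasma and B cell and 0 of 5 red blood cell markers were called. Apoa1 was called higher (0.51) among 7 hepatocyte markers, and Lyve1 lower (−0.51) among 6 endothelial ones. In the lists with 0 called the largest differences were −2.00 for Cel, −0.71 for Cd163, 0.54 for Acta2, 0.54 for Krt7, 0.85 for Mzb1 and −0.28 for Hbb-bs. Of the clock genes, all 4 of the Arntl phase had a higher value with LNA29, with Nfil3 (0.36, adjusted p = 0.124, limma) called, and all 4 of the Dbp phase a lower value, with 0 called and Dbp at −1.12. A clock index, the mean log2 level of the first 4 minus that of the other 4, ran from 0.68 to 3.10 with LNA29 and from −0.15 to 2.82 with saline. With the index as a covariate the count of called members stayed at 1. The part of the markers in the Chac1 difference was not tested, and that of the clock genes was not tested further.

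In mice labelled L-Sirt1 KO, 0 of 10 members were called, where 1.19% of the 15885 genes tested were called higher and 0.68% lower. At an unadjusted limma p under 0.05 there were 2 members, Atf3 and Xbp1, both with lower values, and 11.2% of all genes. The median difference was −0.13 over the members and −0.0027 over all genes.

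Atf3 was 69.6, 33.8, 118 and 52.8 with LNA29 and 126, 146, 141 and 104 with saline. LNA29-treated mice lay below the saline-treated ones but for replicate 3, whose 118 lay above the lowest of them. The difference was −1.04 (SE 0.33, −1.78 to −0.30) with an adjusted p of 0.278 by limma and an exact permutation p of 0.0571, where the smallest that 4 against 4 mice allow is 0.0286. Without LNA29 replicate 3, whose value makes the overlap, the difference was −1.34 and called (adjusted p = 0.157, limma). Leaving out the highest LNA29-treated mouse was bound to widen the difference, so this call adds no support. No other alternative fit called a member in these mice. Within the 3 flow cells the difference of Atf3 was −1.35, −0.31 and −1.18, with 1 or 2 mice of each treatment in each.

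Xbp1 was 12663, 8679.8, 12493 and 9162 with LNA29 and 12479, 14235, 12236 and 14241 with saline. The difference was −0.32 (−0.63 to −0.02) with an adjusted p of 0.422 by limma, and the groups overlap. Chac1 was 53.8, 224, 247 and 282 with LNA29 and 57.6, 136, 107 and 286 with saline, a difference of 0.45 (−0.86 to 1.76). It was 0.92, 0.86 and 0.69 within the 3 flow cells. These values compare 2 LNA29-treated mice with 1 saline-treated mouse, 1 with 1, and 1 with 2. In the LNA29-treated group 3 of 4 mice lay above all but 1 of the saline-treated mice, the groups overlap, and the interval holds the 0.98 seen in WT/Floxed mice.

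The other members differed by 0.02 (−0.33 to 0.36) for Atf4, −0.36 (−0.88 to 0.16) for Ddit3, −0.50 (−1.39 to 0.40) for Trib3, 0.13 (−1.04 to 1.29) for Asns, whose mean of 26.1 is again under 50, −0.02 (−0.32 to 0.28) for Ern1 and −0.25 (−0.72 to 0.23) for Herpud1. Hspa5 ran from 36266 to 124187 with LNA29 and from 39239 to 79519 with saline, a difference of 0.35 (−0.42 to 1.11). A difference in the LNA29 response between KO and WT/Floxed mice passed for 0 of 10 members at an adjusted p under 0.2, and for 0.0449% of the 15601 genes in both tables. Atf3 alone among the members had an unadjusted limma p under 0.05, with a difference in response of −1.05 (−1.99 to −0.10, adjusted p = 0.478), against 9.14% of all genes. For Chac1 it was −0.54 (−1.90 to 0.83).

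In the 8 pathway lists 1 of 108 genes tested in these mice was called, with 9 at an unadjusted limma p under 0.05. This was Atf5, a factor close to ATF4, with 15832 to 20711 against 19402 to 35731 and a difference of −0.69 (adjusted p = 0.1999, limma). Its call was lost without any 1 of 7 of the 8 mice, all but saline replicate 3, with an adjusted p of up to 0.424. Fgf21, called higher with LNA29 in WT/Floxed mice, had the largest difference of the same list here, −2.51 (adjusted p = 0.247, limma), and was not called. ER chaperones and folding enzymes had a higher value in 18 of 21 genes, with 0 called and a median of 0.20, led by Sdf2l1 at 0.85. Degradation genes had a higher value in 13 of 16, with 0 called and a median of 0.11, and Derl3 differed by 2.05 (adjusted p = 0.263, limma). The kinase PERK, from Eif2ak3, differed by 0.44, the tRNA synthetase gene Lars by 0.27, the sensor gene Atf6b by 0.57, Aldh1l2 by −0.73 and Egr1 by 1.45, none of them called. Among cell type markers Lyve1 (−1.17) and Clec4f (−0.29) were called lower, and with the flow cell as a covariate neither was called (adjusted p = 0.251 and 0.335, limma), nor was Atf5 (0.301). In the other marker lists 0 were called, and the largest differences were 0.60 for Cps1, 0.28 for Ms4a1, 0.96 for Cela2a, 1.15 for Acta2, −0.44 for Krt7 and −0.36 for Hbb-bt. The clock index ran from −3.24 to 1.37 with saline and from 1.60 to 2.61 with LNA29, so the groups did not overlap in it, and the largest differences were 1.51 for Npas2 and −3.04 for Dbp, with 0 clock genes called. With the index as a covariate 0 members were called.

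In ZFR against ZLR, Xbp1 was the member that fell, and 8 other members were tested without a call. Xbp1, whose spliced form drives genes of ER folding, secretion and degradation, was 165, 192, 127 and 138 in ZFR and 270.1, 363, 316 and 355 in ZLR. All ZFR lay below all ZLR, with means of 156 ± 28.7 (SD, n = 4) and 326 ± 42.5 (SD, n = 4). The difference was −1.07 (SE 0.16, −1.42 to −0.72), a fold of 0.476, with an adjusted p of 0.0049 by limma and an exact permutation p of 0.0286, the smallest that 4 against 4 rats allow. The shallow libraries gave it few reads, with 5113, 163, 61 and 89 in ZFR and 7049, 8402, 30 and 34 in ZLR. Without the 3 libraries under 1 M reads the difference was −0.93 (adjusted p = 0.035, limma), and within the 2 flow cells it was −0.81 and −1.33. The fit without those libraries kept ZFR replicates 1, 2 and 4 (58.5, 1.56 and 1.24 M reads) and ZLR replicates 1 and 2 (56.4 and 46.1 M). Depth thus still differed between the groups in that fit. 1 of 9 members tested was thus called lower and 0 higher, where 2.46% of the 8633 genes tested were called lower and 1.8% higher. 1 member and 14.5% of all genes had groups that did not overlap. The median difference was −0.0072 over the members and 0.07 over all genes.

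The groups of rats also stood apart in other measures. The clock index ran from −3.06 to −1.09 in ZFR and from 0.75 to 4.13 in ZLR, with Npas2 (−3.65) and Arntl (−2.46) called lower and Dbp (5.01), Per3 and Tef (1.19) higher in ZFR. With the index as a covariate the difference of Xbp1 was −1.10, with an adjusted p of 0.999 by limma, in a fit that called 1 gene higher and 1 lower over the whole table. Stellate cell markers summed to 236 to 350.0 in ZFR and 142 to 200.5 in ZLR, with Acta2 (2.24) called among 6 tested. Of 8 hepatocyte markers 5 were called, among them Cps1 (−0.58), Fgb (−0.53) and Tf (0.44), and Stab2 (1.16) was called among 5 endothelial ones. The largest differences in marker lists with 0 called were 2.10 for Marco, 1.21 for Spp1 and 1.24 for Hbb. Their part in the Xbp1 difference was not tested.

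Atf3 was 196, 36.8, 92.6 and 45.6 in ZFR and 5.98, 23.9, 10.6 and 42.1 in ZLR. ZFR had the higher values, but 1 ZFR lay below the highest ZLR, and 2 ZLR values rest on 1 and 4 reads. The difference was 2.14 (0.68 to 3.59), with an adjusted p of 0.115 by limma and an exact permutation p of 0.0571. With a mean count of 56.7 and an unadjusted limma p of 0.0085, it would pass the 4 criteria used for mice, but not the rat limit. Atf3 was called where the libraries were weighted, at 2.74 with sample quality weights (adjusted p = 0.0077, limma) and 2.62 with weights from the estimated reads (adjusted p = 0.0265, limma). Chac1 was too low to be tested, with 4.83, 0, 2.09 and 1.56 in ZFR and 3.03, 6.78, 21.1 and 31.3 in ZLR, where the highest values rest on 2 and 3 reads.

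Ddit3 was 33.5, 23.4, 30.6 and 24.4 in ZFR and 26.6, 26.1, 0 and 43.8 in ZLR, a difference of 1.08 (−1.23 to 3.40). Without ZLR replicate 3, a library under 1 M reads in which Ddit3 is listed at 0, it was −0.17. Atf4 was 402, 196.6, 301 and 289.9 in ZFR and 346, 302, 450.5 and 457 in ZLR, a difference of −0.41 (−0.90 to 0.08). Trib3 differed by 0.29 (−0.61 to 1.19), Asns by 0.15 (−0.84 to 1.14, and −0.14 without ZFR replicate 1), Hspa5 by −0.20 (−0.54 to 0.15), Herpud1 by −0.15 (−0.66 to 0.36) and Ern1 by −0.0072 (−0.68 to 0.66). The intervals of Ern1, Hspa5 and Herpud1, the other members of the ER arm, all end above −0.72, the upper bound for Xbp1.

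Of the 98 pathway genes tested in this comparison 1 was called, with 23 at an unadjusted limma p under 0.05, as were 16.6% of all genes. It was Btg2, an antiproliferative immediate early gene, at 91.8 to 261 in ZFR and 33.9 to 73.7 in ZLR, a difference of 1.62 (adjusted p = 0.0486, limma), and the call was lost without any 1 of 6 of the 8 rats, all but ZFR replicate 2 and ZLR replicate 3 (adjusted p up to 0.142). Of the 12 immediate early genes tested 8 had a higher value, with 5 at an unadjusted limma p under 0.05 and a median of 0.98. ER chaperones had a lower value in 16 of 21 genes, with 0 called, 6 at an unadjusted limma p under 0.05 and a median of −0.18, led by Sdf2l1 at −0.71. Such a p was also seen in 4 of 9 genes of amino acid supply and in 4 of 15 of degradation and translocation. In the lists with 0 called, the largest differences were 1.58 for Eif2ak4, which codes for the amino acid sensing kinase GCN2, 1.60 for Ddit4, 1.76 for Psat1 of serine synthesis, 0.82 for Cars, 1.05 for Mbtps2 and 0.53 for Derl2. Eif2ak4, Ddit4, Psat1 and Mbtps2 are listed at 0 in a ZLR library, and the means of Mbtps2 were 20.6 and 20.4.

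**Figure D3:**
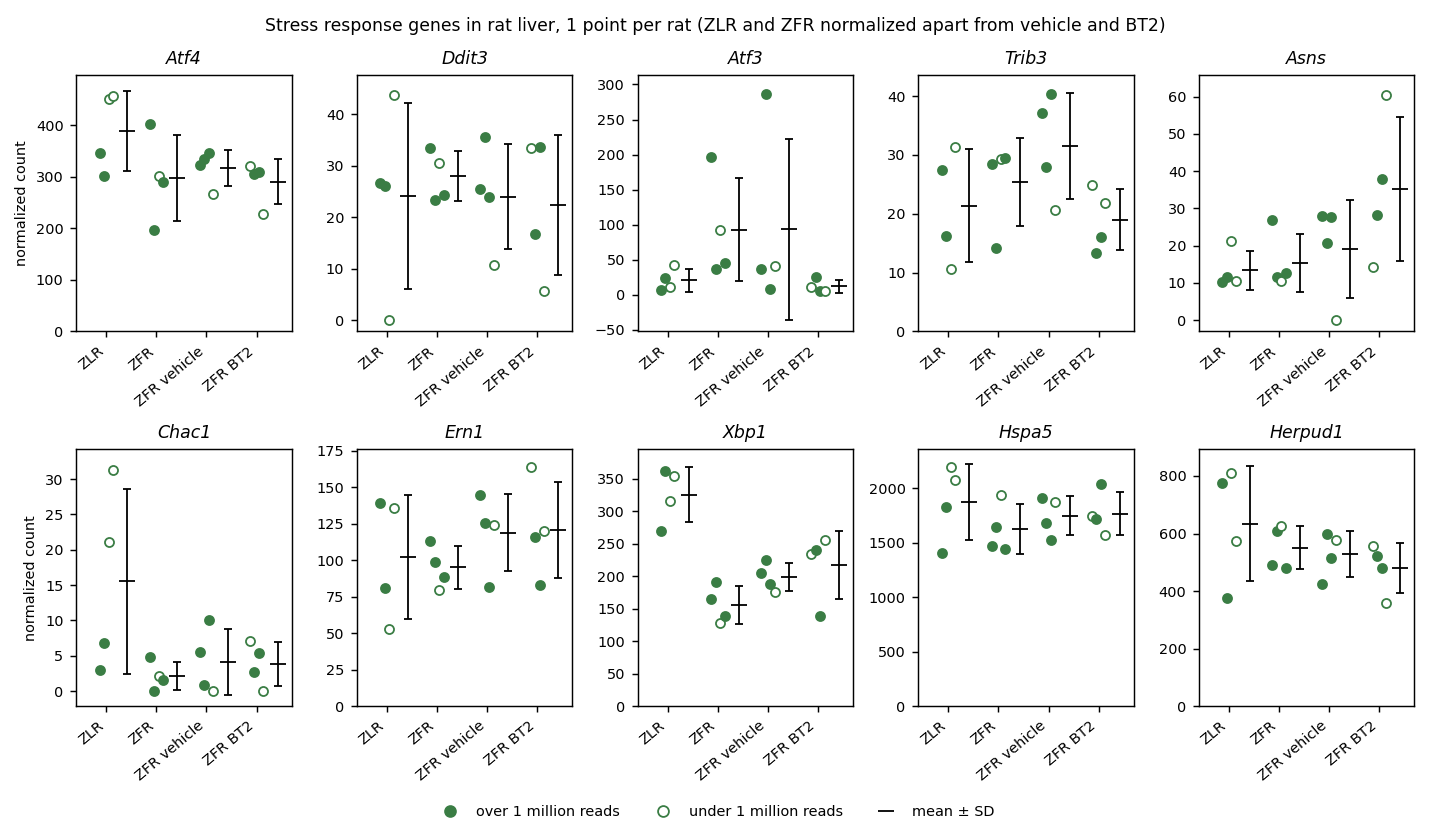
Normalized counts of the 10 genes in rat liver by group, 1 point per rat, with open circles for libraries under 1 M reads and bars for the mean ± SD. ZLR and ZFR were normalized apart from vehicle and BT2. The 4 ZFR lie between 127 and 192 for Xbp1, below the 270.1 to 363 of the ZLR.

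In ZFR given BT2 or vehicle, 0 of 9 members tested were called in either direction by limma, as were 0% of the 8405 genes tested, with 1 member and 3.95% of all genes at an unadjusted p under 0.05. The median difference was −0.13 over the members and 0.0061 over all genes. Atf3 had the lowest p among the members, with 36.3, 286, 8.31 and 41.6 in vehicle and 10.8, 25.6, 5.40 and 5.48 in BT2. The groups overlap, and vehicle replicate 2 lies far above the rest. The difference was −2.09 (−4.03 to −0.15), with an adjusted p of 0.898 by limma and an exact permutation p of 0.0857. Trib3 was 37.2, 28.0, 40.3 and 20.6 in vehicle and 24.9, 13.3, 16.1 and 21.8 in BT2, a difference of −0.69 (−1.40 to 0.02) with the same adjusted p by limma and the same exact permutation p.

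Xbp1, the member that differed between ZFR and ZLR, was 205, 225, 189 and 175.5 in vehicle and 235, 240.3, 139 and 256 in BT2, a difference of 0.10 (−0.34 to 0.54). This interval does not reach the size of the difference between ZFR and ZLR in either direction. Asns was 28.0, 20.8, 27.7 and 0 in vehicle and 14.4, 28.3, 37.8 and 60.4 in BT2, a difference of 1.47 (−0.69 to 3.63), and of 0.29 without vehicle replicate 4, in which Asns is listed at 0. Hspa5 differed by 0.02 (−0.25 to 0.28), the narrowest interval of the 4 comparisons for this gene, Atf4 by −0.13 (−0.47 to 0.20), Ddit3 by −0.25 (−1.49 to 0.98), Herpud1 by −0.15 (−0.52 to 0.22) and Ern1 by 0.01 (−0.52 to 0.54). Chac1 was not tested, with 5.48, 0.896, 10.1 and 0 in vehicle and 7.12, 2.67, 5.36 and 0 in BT2. Of 97 pathway genes 0 were called by limma and 5 had an unadjusted p under 0.05, and the largest differences in the lists were 0.64 for Nupr1, 1.82 for Phgdh, 0.62 for Wars, −0.87 for Ero1a, 0.27 for Edem1, 2.14 for Socs3, −1.11 for Eif2b3 and 1.35 for Creb3l2. Phgdh, Socs3 and Creb3l2 are listed at 0 in a vehicle library and Eif2b3 in a BT2 library. The clock index ran from −0.42 to 2.34 with BT2 and from −2.90 to 0.78 with vehicle, with 1.80 for Npas2 and −2.21 for Dbp. Of the cell type markers 0 were called by limma, and the largest differences were 0.49 for Fgb, 1.25 for Ptprc, 1.32 for Dcn, −0.31 for Cdh5, 0.65 for Epcam and 1.06 for Alas2, of which Ptprc, Dcn and Alas2 are listed at 0 in a vehicle library.

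**Figure D4:**
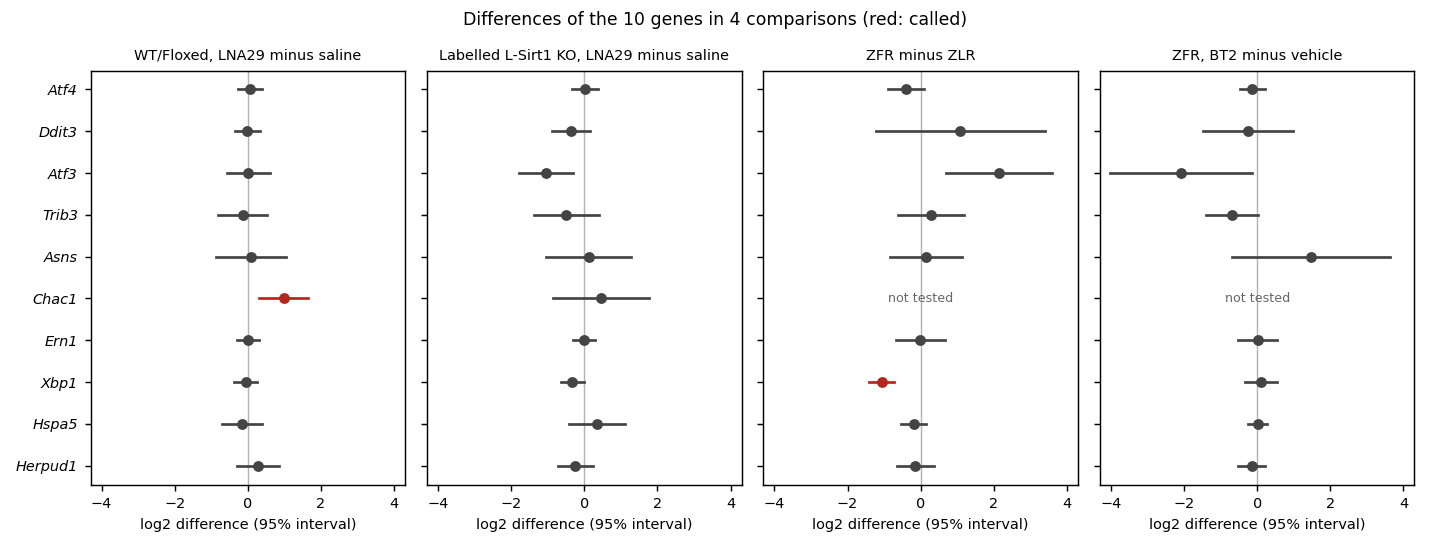
Log2 differences of the 10 genes in the 4 comparisons, with points for the difference and lines for its 95% interval, red where a gene was called. Chac1 with LNA29 in WT/Floxed mice (0.98) and Xbp1 in ZFR (−1.07) are the 2 called values, and Chac1 was not tested in rats. The adjusted p had to be under 0.2 in mice and under 0.05 in rats. Atf3 in ZFR (2.14, adjusted p = 0.115, limma) would pass the mouse criteria, and Chac1 in mice (adjusted p = 0.161, limma) would not pass the rat one.

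The WT/Floxed table also holds a contrast that the study did not make, between its floxed and its WT mice. It was chosen for this report after the values had been seen and compares 6 floxed with 7 WT mice, with treatment in the fit. The floxed mice were also older, so the floxed allele, age and any difference in housing cannot be told apart. In this contrast 3 of 10 members were called higher and 1 lower, where 7.26% of the 15811 genes tested were called higher and 7.48% lower.

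Atf4 (chr15:80255184-80257541, plus strand, GRCm38) ran from 5413 over a median of 6147 to 7078 in floxed mice and from 3898 over 4569.7 to 5074 in WT mice. All floxed mice lay above all WT mice, with means of 6256 ± 695 (SD, n = 6) and 4449 ± 426 (SD, n = 7). The difference was 0.49 (SE 0.084, 0.31 to 0.67) with an adjusted p of 0.0107 by limma. The share of all genes whose floxed and WT ranges do not overlap was not determined. Xbp1 ran from 10144 over 12825 to 16044 in floxed mice and from 8525 over 9361 to 11543 in WT mice, a difference of 0.44 (0.24 to 0.65, adjusted p = 0.0242, limma) with some overlap. Ddit3 ran from 316 over 391 to 554 and from 290.4 over 312 to 450, a difference of 0.31 (0.0025 to 0.61, adjusted p = 0.194, limma). Its call was lost without any 1 of 9 of the 13 mice (LNA29 replicates 1, 3, 4 and 7 and each saline replicate, adjusted p up to 0.371). Mars, which overlaps Ddit3 on the opposite strand, was also called higher in this contrast (0.41), and the reads of the 2 genes may not be separate. Ern1 went the other way, from 2330.1 over 2865 to 3571 in floxed mice and from 2924 over 3766 to 4091 in WT mice, a difference of −0.35 (−0.57 to −0.13, adjusted p = 0.0605, limma). The sensor gene Ern1 was thus lower where its substrate Xbp1 was higher.

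Hspa5 ran from 29534 over a median of 72405 to 105042 in floxed mice, a coefficient of variation of 39.0%, and from 43898 over 48184 to 54018 in WT mice, a coefficient of 8.16%. The difference in spread was not tested. The difference was 0.47 (−0.01 to 0.96, adjusted p = 0.207, limma), and it was called without LNA29 replicate 6, the lowest floxed mouse (0.69, adjusted p = 0.0249, limma), and without saline replicate 2 (0.60, adjusted p = 0.169, limma). Leaving out the lowest floxed mouse was bound to widen the difference. Herpud1 had a coefficient of variation of 47.6% in floxed and 19.5% in WT mice and differed by −0.32 (−0.87 to 0.23). Atf3, Trib3 and Chac1 were not called in this contrast, and Asns, with a mean under 50, could not be. They differed by −0.32 (−0.88 to 0.25) for Atf3, −0.33 (−0.99 to 0.32) for Trib3, 0.71 (−0.18 to 1.60) for Asns and −0.0040 (−0.68 to 0.67) for Chac1.

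The ER lists held most of the other calls in floxed mice. Of 21 ER chaperones and folding enzymes 9 were called higher and 0 lower, with a median of 0.26 against −0.0090 over all genes. They were the folding factors Creld2 (1.26), Sdf2l1 (1.01), Hyou1 (0.77), Manf (0.77), Dnajb11 (0.72) and Fkbp11 (0.62). Ero1lb (0.44), Txndc5 (0.40) and Erp44 (0.34) were called with smaller differences. The ranges of floxed and WT mice overlapped for all 9. For Creld2 (1160 to 8634 in floxed and 1357 to 1820 in WT mice), Sdf2l1, Hyou1 and Manf the lowest floxed mouse lay below all WT mice. For the others it did not. Of 16 genes of degradation and translocation 6 were called higher and 0 lower, with a median of 0.21, which were Derl3 (1.16), Syvn1 (0.65), Selenos (0.50), Sec61b (0.42), Sel1l (0.36) and Serp1 (0.28). The ranges overlapped for these 6 genes as well. Of 8 ER sensors and their proteases 0 were called, and their median was 0.03.

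The lists of the ATF4 branch held fewer calls. They were 4 of 12 aminoacyl-tRNA synthetases, all higher (Cars 0.64, Mars 0.41, Yars 0.32 and Sars 0.27), 1 of 12 genes of eIF2 control (Ppp1r15a, 0.40) and, of 15 genes of amino acid supply, Psph higher (0.38) and Gpt2 lower (−0.59). Of 11 ATF4 partners Nupr1, a stress-induced chromatin protein, was called higher (0.88), at 95.1 to 178 in floxed and 50.1 to 78.1 in WT mice. Of 14 immediate early genes 4 were called, all higher (Socs3 0.87, Ier3 0.66, Zfp36 0.53 and Ier2 0.45). Lower values that passed on the adjusted p but not on the mean of 50 were those of Fosb, another immediate early gene (−1.41, adjusted p = 0.0452, limma), and Stc2, of the ATF4 partners (−1.20, adjusted p = 0.0415, limma), for which all floxed mice lay below all WT mice.

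Other measures were read in the same floxed and WT mice. The clock index ran from −0.15 to 2.76 in floxed and from 0.25 to 3.10 in WT mice. Acinar markers summed to 23.6 to 63.7 in floxed and 50.4 to 1231 in WT mice, with 1 of 5 called lower, 1 of 7 hepatocyte markers was called in each direction, and 0 of the macrophage, stellate, endothelial, cholangiocyte, red blood cell and plasma and B cell markers were called. The part of the markers in the differences was not tested, and with the clock index as a covariate Ddit3 lost its call. In the LNA29-treated mice alone the difference of Atf4 was 0.41 and was not called (adjusted p = 0.227, limma).

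**Figure D5:**
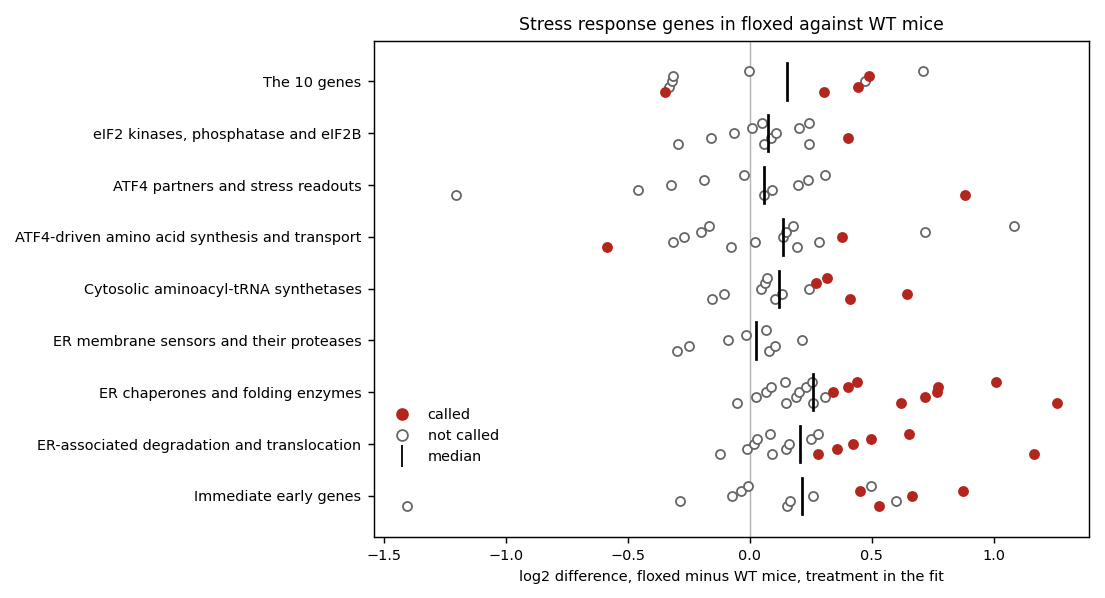
Log2 differences between floxed and WT mice for the 10 genes and for the genes of 8 pathway lists, 1 point per gene, filled where called, with a bar for the median of each list. 9 of 21 ER chaperones and 6 of 16 degradation genes are called, all higher, and 0 of 8 ER sensors.

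Over the 13 WT/Floxed libraries, with the treatment means taken out, 12875 genes with a mean above 50 were searched. The genes sought were those whose counts were most like those of Hspa5, the member with the longer ER stress response element. They were Hyou1 (Pearson's r 0.966, Spearman's rho 0.945), an ER chaperone, Spcs2 (0.963 and 0.879), a signal peptidase subunit, Manf (0.958 and 0.89), Trabd (0.948 and 0.797) and Sec22b (0.946 and 0.725), which works in transport between ER and Golgi. These r values stayed between 0.879 and 0.936 without the 2 mice farthest from the median of Hspa5. Among the members Xbp1 came nearest (0.818 and 0.742, and 0.629 without those mice), and for Atf4 the rho was 0.577. The points share their libraries and the floxed and WT mix, so the values describe these mice.

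For Asns, a target of ATF4, among the nearest of 12876 genes were Gm10800 (Pearson's r 0.861), Iqcg (0.858), Cracr2b (0.844) and Itm2c (0.818), over the same 13 libraries. None of them is in the pathway lists. Atf4 itself had r of 0.294 and rho of 0.319 with Asns, and r of 0.068 without LNA29 replicate 8 and saline replicate 5, the mice with the most Asns. The points again share their libraries.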

How the data were processed

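RNA-seq of 37 livers, 21 from mice and 16 from rats, was analysed from 4 tables, with 0 value columns left unmatched. The deposited values are a signal that the authors made by aligning polyA-selected 100-base single-end reads to mm10 or rn6 with STAR, estimating gene counts with Salmon and dividing them by DESeq2 factors, each table on its own. Whole read counts were not recovered (within 0.01 reads, 72.2% to 78.4% of the low values were whole in mice and 75.3% to 91.8% in rats), so no count model was run, and the depth is an estimate from the value of 1 read. Entries with a repeated name or named NA (511 in mice, 0.105% and 0.103% of counts) and, in rats, repeated (4523, 2.12% and 2.17%) or blank names (201, 0.0461% and 0.0394%) were left out.

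Tests used limma 3.58.1 in R 4.3.3 (trend, log2 of normalized count + 1, genes with a mean of at least 10, files read with version 1.17.8 of data.table), with Benjamini-Hochberg adjustment over all genes tested. For single members a two-sided exact permutation test over libraries was added, without adjustment. Groups are those of the labels, and WT or floxed background is from the sample titles. The difference between genotypes was an interaction term. Sequences were searched with Python 3.11.15 and pandas 2.3.3, and figures drawn with matplotlib 3.10.9. The model fits were tested on simulated data, with the same spread between animals for all genes. Simulated 1.5-fold changes were called in 98% (WT/Floxed), 96% (KO), 20% (ZFR against ZLR) and 26% (BT2) of cases. For 2-fold changes it was 58% in ZFR against ZLR and 64% with BT2, so smaller rat differences can be missed. Intervals rest on the spread between libraries, and the main fit did not weight libraries by depth. Pseudocount, minimum count, scaling, weights, flow cell, replicate block, clock index, background and each left-out library were varied.

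The members and lists were chosen with earlier results of these data known. All members are named, and of each list the genes called if 4 or fewer (otherwise the 3 largest) or the largest difference if none was called. In the comparison of floxed with WT mice, which was added after the values were seen, all called list genes are named. For Hspa5 and Asns the 5 genes with the highest Pearson's r are named, apart from 1 that is not reported here.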

Additional observations from a re-analysis of the deposited data

Results flagged for a closer look

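In 80 checks of the highest and lowest animal of a group (10 genes in 8 groups of 4 to 8 animals), 6 values stood far from the others by Dixon's test, where chance picks about 1 in 20 groups. In mice they were Hspa5 in WT/Floxed saline replicate 5, a floxed mouse, at 105042 normalized counts with the next at 54018, and Atf4 in L-Sirt1 KO saline replicate 1, at 8180.5 with the next at 5462. In rats they were Atf3 in ZFR vehicle replicate 2 (286, next 41.6), Trib3 in ZFR replicate 2 (14.1, the lowest, next 28.4), Asns in ZFR replicate 1 (26.8, next 12.6) and Asns in ZLR replicate 3 (21.3, next 11.5), whose value rests on 2 reads. Without that vehicle rat the difference of Atf3 between BT2 and vehicle was −1.20, where it was −2.09 with all rats.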

How the results depend on the processing

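In WT/Floxed mice the count of called members went from 1 to 0 with no minimum mean count (Chac1 adjusted p = 0.247, limma), in WT mice alone (0.574), at an adjusted p under 0.05 alone, and, with the replicate number as a replicate block, where Chac1 differed by 0.78 (adjusted p = 0.246) and all called genes went from 383 higher and 305 lower to 39 and 17. Floxed mice alone gave 1 member, Herpud1. Same-numbered animals did not pair (correlations of −0.35 to 0.28), and the replicate block left 0 members in KO mice, 1 in ZFR against ZLR, 0 with BT2 and 0 for the genotype difference. Leaving out 1 animal gave 0 to 1 members in WT/Floxed mice, 0 to 1 in KO mice, 1 in ZFR against ZLR, 0 with BT2 and 3 to 5 in floxed against WT mice. In ZFR against ZLR sample quality weights and weights from reads gave 2 members, and the clock index as a covariate 0. It reversed Dbp to −0.39 (adjusted p = 0.999, limma), a gene that is part of the index. Floxed against WT gave 2 members at an adjusted p under 0.05 alone and 1 in LNA29-treated mice alone. There Ddit3 also lost its call with the clock index as a covariate, and Herpud1 gained one in saline-treated mice alone (−1.27, adjusted p = 0.0264, limma). Dbp was the gene that was called and changed direction among the genes and alternatives run, and the cause of these changes was not tested.

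Counts over all genes moved by over 1.5 times in WT/Floxed mice with no minimum (238 higher and 158 lower), quality weights (658 and 650), WT mice alone (56 and 32), an adjusted p under 0.05 alone (141 and 75) and without LNA29 replicate 8 (230 and 151), 6 (243 and 163), 7 (259 and 184) or saline replicate 1 (273 and 178), in KO mice (189 and 108 as reported) from 35 and 4 at an adjusted p under 0.05 alone to 443 and 361 with quality weights, with 56 and 21 without LNA29 replicate 4, 64 and 21 without 2, 63 and 24 without 3, 119 and 46 without saline replicate 2 and 101 and 32 without 4, and in ZFR against ZLR (155 and 212 as reported) from 1 and 1 with the clock index to 607 and 562 with quality weights, with 91 and 143, 96 and 133, 87 and 138 and 86 and 149 without ZFR replicates 1, 2, 3 and 4. With the flow cell as a covariate Fgf21 (adjusted p = 0.206, limma), Gpt2 (0.239), Shmt2 (0.22) and Lyve1 (0.231) lost their call in WT/Floxed mice. Rat members with a few reads in the 6 libraries under 1 M reads cannot be resolved, and Chac1 was below the minimum there.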
